A study of Mus musculus with 21 samples.

Results

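Of the 11628 genes in the expression table, 25 (0.215%) were chosen for a wild-type peak in MPP4, the multipotent progenitors primed for the lymphoid lineage. The genes were chosen on mean RPKM, the reads of a gene divided by its length and by the mapped reads of the library, over the 3 wild-type libraries of each population. A gene entered when its MPP4 mean was at least 5 RPKM and at least 2 times the mean in haematopoietic stem cells (HSC) and in common lymphoid progenitors (CLP). These thresholds were met by 31 genes, of which 6 were set aside by name (Slco3a1, Cd34, Cebpa, Ctsg, Gfi1 and Slc16a11). Without a fold or level threshold the set is wider: in 313 genes (2.69%), the 25 among them, the lowest wild-type MPP4 library lay above every wild-type HSC and CLP library. Of the 25 genes, 23 encode protein and 2 are long noncoding RNAs, and 2 lie on chromosome X. The wild-type levels chose these genes, so they are given as a description. The mutant libraries played no part in the choice and carry the tests.

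RNA came from 3 populations sorted from the bone marrow of mice that were wild type (3 mice) or homozygous for an Etv6 mutation, written h.P214L by the series (4 mice). Etv6 is a transcriptional repressor of the ETS family, and both of its copies carry the mutation in the mutant mice. All 3 gates excluded lineage-positive cells: HSC were cKit+ and Sca1+, FLK2-, CD150+ and, as the labels write it, CD38-, MPP4 were cKit+, Sca1+ and FLK2+, and CLP were positive for IL7 and Flk2 with cKit and Sca1 low. That gave 21 libraries, with 3 wild-type and 4 mutant ones per population. Replicates 1 and 2 came from 12-week-old mice and replicate 3 from 10-week-old mice; mutant replicate 4 is labelled 12 weeks in HSC and MPP4 and 10 weeks in CLP, so that either the number does not mark 1 mouse there or 1 of the labels is wrong. Replicate 2 was male and the others were female.

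MPP4 lie between stem cells and committed lymphoid progenitors. They carry the receptor FLT3 (FLK2), have lost most of the self-renewal of stem cells, and still give rise to granulocytes and monocytes as well as lymphocytes. Transcripts of lymphoid and of myeloid genes are therefore found in the same population. Where both occur in the same cell the state is called lineage priming, which pooled RNA cannot show.

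The depth of the libraries is unknown because the values are RPKM, which summed to between 337818 and 376135 per library over the genes of the table. The sum of 4 MPP4 gate genes (Flt3, Kit, Ly6a and Cd48) was 738 to 777 RPKM in wild-type MPP4 and 728 to 767 in mutant MPP4, against at most 444 in HSC and 638 in CLP. The single genes differed. Flt3 means were 384, 14.9 and 366 RPKM in wild-type MPP4, HSC and CLP, and Cd48 means 169, 4.71 and 164, close in MPP4 and CLP. Kit (151, 332 and 39.9) and Ly6a (56.4, 86.7 and 26.4) were highest in HSC. The sum of 6 stem cell markers was 155 to 221 RPKM in HSC and 25.3 to 63.3 in MPP4 over both genotypes, and the sum of 5 CLP markers was 1998 to 2995 in CLP and 499.97 to 1107 in MPP4. In replicate 1 of MPP4, 4 megakaryocyte markers (Pf4, Itga2b, Gp1ba and Vwf) summed to 159 RPKM in wild type and 128 in the mutant, against 2.98 to 9.58 in the other MPP4 libraries. The make-up of the sums differed. In that order the MPP4 means were 51.1, 2.66, 0.988 and 0.835 RPKM in wild type, mostly Pf4. In the mutant they were 11.9, 12.6, 9.26 and 3.92. Without mutant MPP4 replicate 1, 25 of the genes were called higher than in mutant HSC and 23 than in mutant CLP, as with it. Of all genes, fewer were called higher than in HSC without that library than the 1837 on the main settings. The share of all genes called higher than in CLP without it is not given here. The part of megakaryocyte transcripts in the levels of the 25 genes was not tested. Without wild-type replicate 1 the thresholds and exclusions chose 23 genes. The pooled RNA of many cells was measured, so fewer cells of a type and less RNA per cell cannot be told apart.

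The wild-type MPP4 means of the 25 genes ran from 323 RPKM for Wfdc17 to 5.97 RPKM for Sema3d and BC016579. Wfdc17 stood far above the next genes, Ckap4 at 39.5, Ccl9 at 38.8 and Il1r1 at 35.8 RPKM. The second-highest population in wild type was CLP for 18 of the genes and HSC for 7. The fold threshold was passed most narrowly by Il6ra (2.03 times the higher of the HSC and CLP means), Itgam (2.03) and Hk3 (2.07). Just outside it stood Trim16 (1.995), Btla (1.93) and Vldlr (1.92). At the level threshold, Sema3d and BC016579 (5.97 RPKM each) and Gm16897 (6.48) stood just inside, and F13a1 (4.64), Abcd2 (4.19) and Postn (4.08) just outside.

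**Figure D1:**
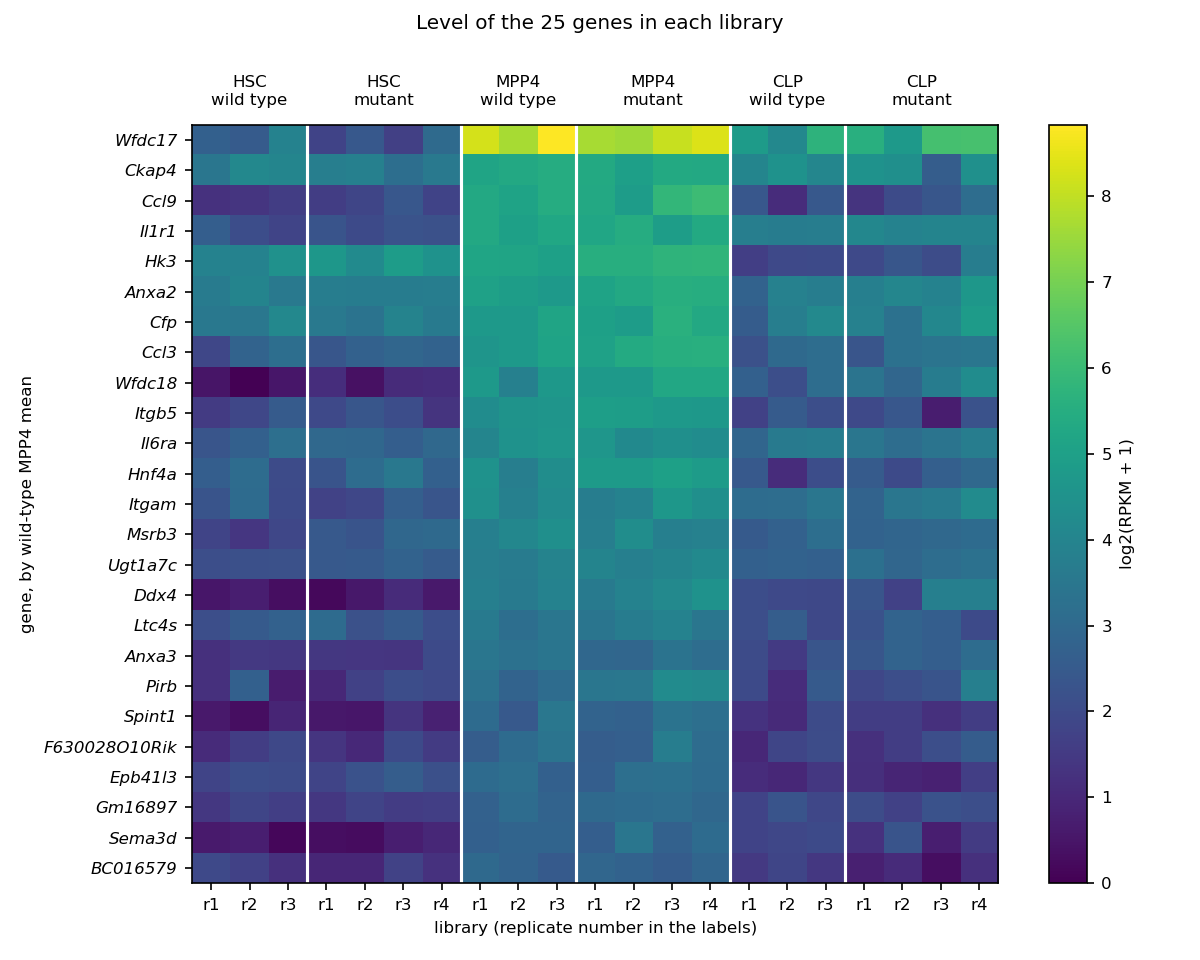
Level of each of the 25 genes (rows, by wild-type MPP4 mean) in each of the 21 libraries (columns, by population, genotype and replicate), as log2(RPKM + 1) on the colour scale. The 7 MPP4 columns are brighter than the HSC columns in every row, and Wfdc17 in the first row is the brightest gene.

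The MPP4 peak was also present in the mutant libraries. All 25 genes were higher in mutant MPP4 than in mutant HSC by limma with Benjamini-Hochberg adjustment, against 16% of all genes tested, and in each of the 25 genes the lowest mutant MPP4 library lay above the highest mutant HSC library (15.3% of all genes). Against mutant CLP 23 of the 25 were called higher, against 16.4% of all genes, and 21 did not overlap (16.4% of all genes). The median difference of the 25 genes was 1.67 on the log2(RPKM + 1) scale from HSC and 1.28 from CLP, where the medians of all genes were -0.05 and 0.06. Both comparisons use the same 4 mutant MPP4 libraries. Called higher in both were 23 of the 25 genes and 160 genes of the whole table (1.39%). The original thresholds, applied to the mutant means, were met by 21 of the 25 genes and by 43 genes of the table (0.37%). The 4 genes that missed were Anxa3 (1.31 times the higher of the other means), Itgam (1.56), Ugt1a7c (1.88) and Ddx4 (1.98).

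The share of higher genes among all calls between MPP4 and CLP depended on the scaling of the libraries: it was 67.6% on the deposited values, 53.5% after median-ratio scaling and 53.7% after quantile normalization. The count of the 25 genes called higher than in CLP was 23, 23 and 22 on these scales. Of all genes, 16.4%, 13.2% and 10.6% were called higher than in CLP in the same order. The count of the 25 genes called higher than in HSC was 25 on each scale, against 16%, 18.2% and 18.9% of all genes.

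**Figure D2:**
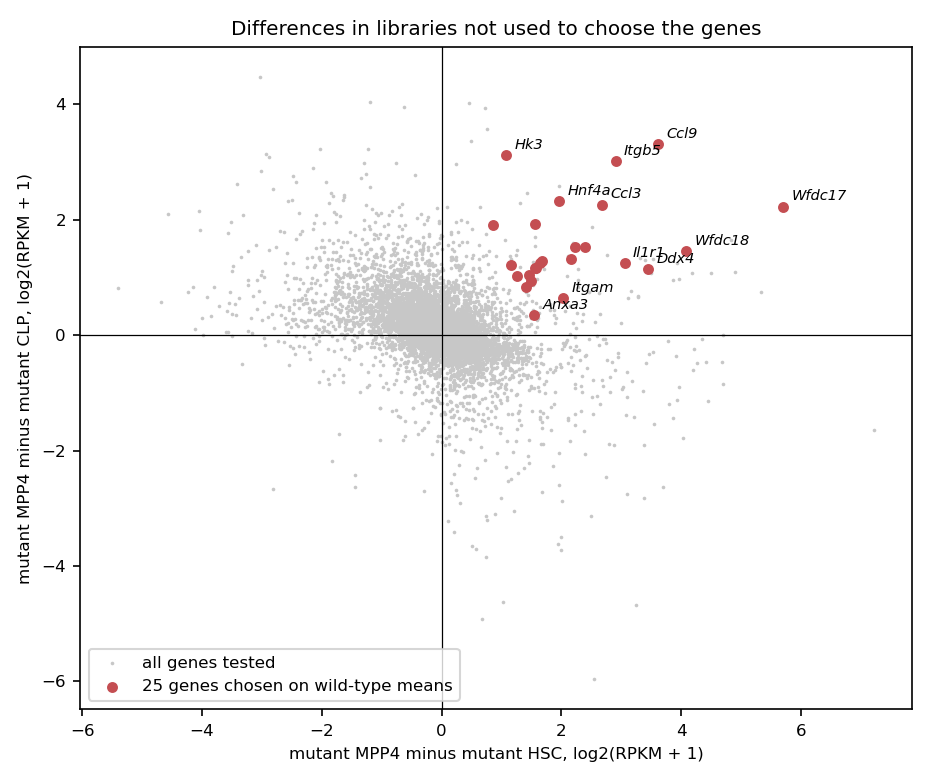
Difference between mutant MPP4 and mutant HSC (horizontal axis) and between mutant MPP4 and mutant CLP (vertical axis), each as the mean of 4 libraries minus the mean of 4 on the log2(RPKM + 1) scale, for all 11496 genes tested (grey) and the 25 genes (red). All 25 lie above 0 on both axes, with Anxa3 (0.35) and Itgam (0.65) lowest on the vertical axis.

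The largest mutant differences from HSC were those of 3 genes of secreted proteins, Wfdc17, Wfdc18 and Ccl9. Wfdc17, Wfdc18, Ccl9 and Ccl3 lie together on chromosome 11 within 138.444 kb (83572917 to 83711360 in GRCm38). Wfdc17 and Wfdc18 encode small secreted proteins with a WAP domain, a fold shared with protease inhibitors, and Ccl9 and Ccl3 encode chemokines that attract myeloid cells. Between neighbours, 2734 bases separate Wfdc17 from Wfdc18, 54677 separate Ccl3 from Wfdc17 and 69206 separate Ccl9 from Ccl3.

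Wfdc17 stood at 204, 189.7, 273 and 332 RPKM in mutant MPP4 replicates 1 to 4, at 2.41, 4.41, 2.19 and 7.25 in mutant HSC and at 46.7, 25.8, 74.6 and 75.6 in mutant CLP. The wild-type values were 307, 206 and 455 in MPP4, 5.52, 4.86 and 14.2 in HSC and 28.1, 16.3 and 51.6 in CLP. CLP was intermediate in both genotypes, and no 2 populations overlapped within a genotype. The mutant log2 difference from HSC was 5.70 ± 0.40 (SE; limma, Benjamini-Hochberg adjusted p = 6.62e-10) and that from CLP was 2.23 ± 0.40 (adjusted p = 2.89e-04). Its neighbour Wfdc18 was low in HSC, at 1.22, 0.331, 1.099 and 1.25 RPKM in the mutant libraries, with 9.498, 6.49, 12.2 and 18.7 in CLP and 26.5, 26.2, 38.2 and 38.1 in MPP4. The wild-type values of Wfdc18 were 0.414, 0 and 0.454 in HSC, 5.55, 3.33 and 7.93 in CLP and 26.3, 13.4 and 25.04 in MPP4. Its order was thus HSC, CLP, MPP4 as for Wfdc17, and the mutant differences were 4.08 ± 0.28 from HSC and 1.45 ± 0.28 from CLP (limma, Benjamini-Hochberg adjusted p = 5.19e-10 and 6.07e-04). The 2 genes are related in sequence, and the rule that assigned reads shared between related genes was not given in the sources used here.

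Ccl9 was low in both other populations, at most 8.003 RPKM against at least 28.4 in MPP4. Its mutant values were 39.2, 28.4, 56.6 and 65.99 RPKM in MPP4, 2.03, 2.63, 4.26 and 2.46 in HSC and 1.5, 3.06, 4.13 and 8.003 in CLP, and the wild-type values were 38.9, 34.05 and 43.5, 1.39, 1.59 and 2.05 and 4.23, 1.16 and 4.39 in the same order. Every MPP4 library lay above every HSC and CLP library, and HSC and CLP overlapped. The mutant differences were 3.62 ± 0.33 from HSC and 3.31 ± 0.33 from CLP (limma, Benjamini-Hochberg adjusted p = 3.60e-08 and 2.88e-07), the latter the largest of the 25 genes. Ccl3 had 31.9, 41.3, 45.7 and 46.05 RPKM in mutant MPP4, 4.21, 5.69, 6.599 and 5.92 in HSC and 4.05, 8.71, 9.57 and 10.2 in CLP. Its wild-type MPP4 values were 23.5, 26.0 and 33.5, so that 3 of the 4 mutant libraries lay above all 3 wild-type ones. The mutant differences of Ccl3 were 2.68 ± 0.27 and 2.26 ± 0.27 (limma, Benjamini-Hochberg adjusted p = 1.26e-07 and 2.52e-06).

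The table holds 2 further chemokine genes inside the interval, and neither met the thresholds in wild type. Ccl4, which overlaps Ccl3 in the annotation, had its highest wild-type mean in HSC, at 25.05 ± 15.1 RPKM (SD, n = 3) against 14.2 ± 2.32 in MPP4 and 8.84 ± 3.42 in CLP. In the mutant it was called higher in MPP4 than in CLP (1.05 ± 0.30, adjusted p = 0.0141) and was not called against HSC (-0.14 ± 0.30, adjusted p = 0.745, both limma with Benjamini-Hochberg adjustment). Because the library kit does not mark strand and the counting rule is not given, reads of the overlapping stretch cannot be assigned to Ccl3 or Ccl4 with certainty. Ccl6 stood at 7.28, 6.02 and 10.3 RPKM in wild-type MPP4 and at 3.86, 27.4, 38.5 and 41.7 in mutant MPP4. Mutant replicate 1 lay below all 3 wild-type libraries and the other 3 mutant libraries above them. Its mutant means were 27.9 ± 17.1 RPKM (SD, n = 4) in MPP4, 15.2 ± 11.8 in CLP and 4.29 ± 3.51 in HSC. Ccl6 was called higher in mutant MPP4 than in mutant HSC (2.27 ± 0.72, adjusted p = 0.0158) and was not called against mutant CLP (0.90 ± 0.72, adjusted p = 0.400, both limma with Benjamini-Hochberg adjustment). The difference between genotypes in Ccl6, a gene outside the 25, was not called (log2 1.34 ± 0.77, limma, Benjamini-Hochberg adjusted p = 0.720). The nearest genes of the expression table on either side of the interval, Taf15 and Heatr6, stood at 5.52 and 7.09 RPKM in wild-type MPP4. Neither was called between mutant MPP4 and mutant HSC or CLP (limma, Benjamini-Hochberg adjusted p from 0.103 to 0.724).

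**Figure D3:**
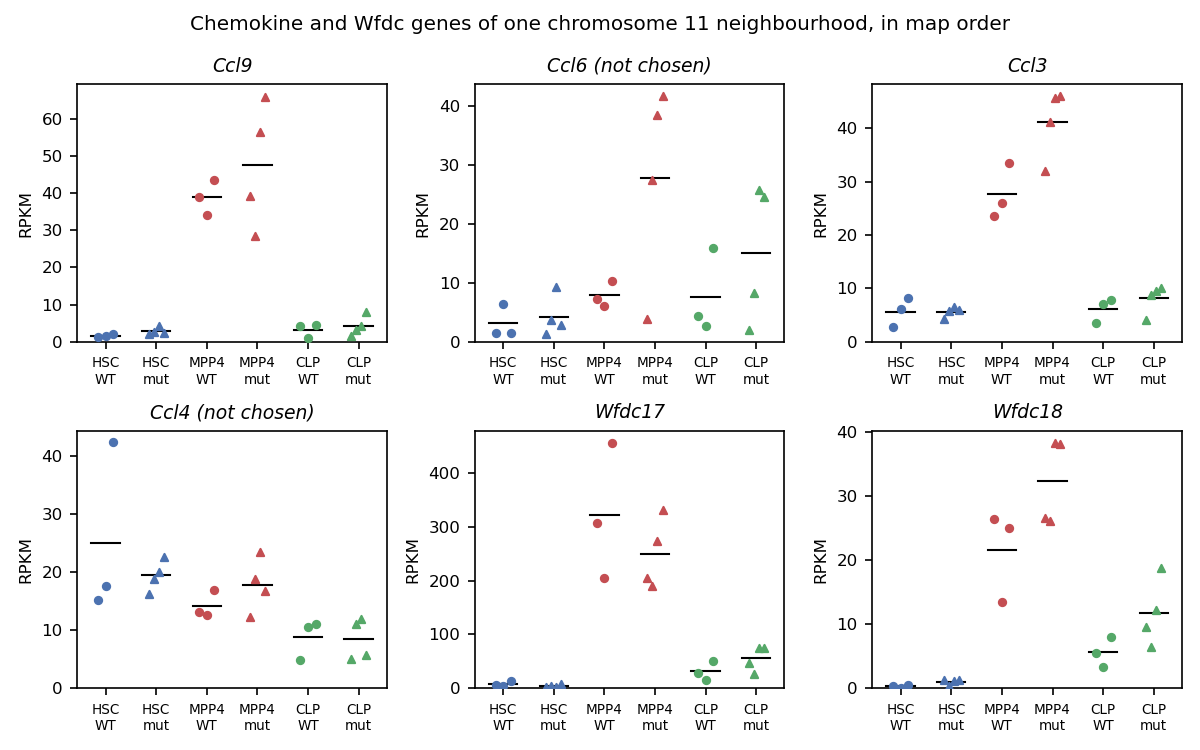
RPKM of 6 genes of the chromosome 11 interval in every library, in map order, with a point per library (circles wild type, triangles mutant) and a line at each group mean; each panel has its own linear axis from 0. Ccl9, Ccl3, Wfdc17 and Wfdc18 are highest in MPP4, whereas Ccl4 is highest in wild-type HSC and Ccl6 spreads from 3.86 to 41.7 RPKM among mutant MPP4 libraries.

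Cfp, which encodes properdin, the plasma protein that stabilises the alternative complement convertase, was more evenly spread. Its means were 36.7 ± 8.63 RPKM (SD, n = 4) in mutant MPP4, 11.5 ± 2.18 in HSC and 16.7 ± 8.11 in CLP, and the differences were 1.58 ± 0.30 and 1.17 ± 0.30 (limma, Benjamini-Hochberg adjusted p = 3.00e-04 and 0.00693). The gap to CLP was narrow: the highest mutant CLP library had 27.9 RPKM and the lowest mutant MPP4 library 28.1. Sema3d, a secreted semaphorin known for axon guidance, had 5.18, 10.02, 5.71 and 7.504 RPKM in mutant MPP4, 0.268, 0.22, 0.668 and 0.976 in HSC and 1.39, 3.895, 0.676 and 1.87 in CLP. It was under 1 RPKM in every HSC library of both genotypes, and was called higher in MPP4 against both populations (2.39 ± 0.25 and 1.53 ± 0.25; limma, Benjamini-Hochberg adjusted p = 2.12e-07 and 1.12e-04).

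Among the receptors, those for interleukin-1 and interleukin-6 had the same order of populations, HSC lowest and MPP4 highest. Il1r1, the signalling receptor of interleukin-1, stood at 36.2, 42.98, 29.3 and 40.5 RPKM in mutant MPP4, 15.8, 14.1, 15.02 and 14.9 in CLP and 3.96, 2.93, 3.84 and 3.56 in HSC. In wild type it stood at 38.8, 31.3 and 37.4, 12.8, 12.2 and 12.5 and 5.19, 3.24 and 2.48 in the same order. The 3 populations were separate in each genotype and the CLP values lay close together. The mutant difference from HSC was 3.06 ± 0.14 and that from CLP 1.25 ± 0.14 (limma, Benjamini-Hochberg adjusted p = 1.28e-12 and 1.31e-06). Il6ra, the ligand-binding chain of the interleukin-6 receptor, had smaller steps, with 19.99 ± 2.91 RPKM in mutant MPP4, 9.99 ± 1.87 in CLP and 6.41 ± 0.826 in HSC. Its differences of 1.499 ± 0.20 and 0.94 ± 0.20 were called (limma, Benjamini-Hochberg adjusted p = 4.99e-06 and 0.00142), and its mutant MPP4 mean was 2.0 times the CLP mean.

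The integrin chains among the 25 genes were Itgb5 and Itgam. Itgb5, which pairs with the alpha V chain to bind vitronectin, had 29.95, 29.3, 26.1 and 25.01 RPKM in mutant MPP4, 2.86, 4.103, 3.25 and 1.49 in HSC and 2.83, 4.24, 0.632 and 3.68 in CLP, and 18.5, 22.2 and 23.1, 1.88, 2.66 and 4.84 and 2.23, 4.77 and 3.37 in wild type. The MPP4 libraries stood well above the rest, and HSC and CLP did not separate. The mutant differences were 2.91 ± 0.30 and 3.02 ± 0.30 (limma, Benjamini-Hochberg adjusted p = 1.51e-07 and 2.14e-07). Itgam, which encodes CD11b, the integrin chain of neutrophils and monocytes, had 12.4, 14.2, 24.7 and 20.2 RPKM in mutant MPP4, 2.33, 2.71, 5.46 and 3.99 in HSC and 6.05, 9.98, 11.4 and 18.3 in CLP. It was called against HSC (2.03 ± 0.29, adjusted p = 1.03e-05) and not against CLP (0.65 ± 0.29, adjusted p = 0.111, both limma with Benjamini-Hochberg adjustment). The highest CLP library, replicate 4 with 18.3 RPKM, lay above 2 of the MPP4 libraries, and without it the difference was 0.89 and was called (adjusted p = 0.0253). Without the 4 libraries in which mature neutrophil markers summed to over 1000 RPKM it was 1.05 (limma, Benjamini-Hochberg adjusted p = 0.0256). That setting left only replicates 1 and 3 of mutant CLP. With a term for age the Itgam difference was 0.74 (limma, Benjamini-Hochberg adjusted p = 0.0487). The age term and the omission of neutrophil-rich libraries were chosen after the data were seen. All other alternatives left Itgam uncalled against CLP.

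Pirb, an inhibitory receptor of myeloid and B cells that binds MHC class I, varied among libraries. The mutant values were 9.94, 10.3, 17.95 and 16.8 RPKM in MPP4, 0.962, 2.27, 3.296 and 2.84 in HSC and 2.699, 3.32, 3.87 and 12.97 in CLP. CLP replicate 4 stood apart from the other CLP libraries and above 2 of the MPP4 libraries. The gene was called against HSC (2.15 ± 0.43, adjusted p = 4.08e-04) and against CLP (1.31 ± 0.43, adjusted p = 0.0287, limma with Benjamini-Hochberg adjustment). The CLP call was lost with a pseudocount of 0.1, with quantile normalization, and without any one of MPP4 replicates 3 and 4 or CLP replicates 1, 2 and 3 (adjusted p from 0.0501 to 0.0934). Pirb has close relatives in its gene cluster, so its values are uncertain for the same reason as those of the Wfdc genes.

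Promoter sequence was searched for short motifs of factors known in these cells, over 250 bases before and 50 after each start in the RefSeq annotation of GRCm38.p6. Windows were found for 24 of the 25 genes, 28 windows in all, and 1 gene (Anxa3) had none. Each motif was searched on both strands: the ETS motif CCGGAAGT, to which Etv6 and its relatives bind, the PU.1-type ETS motif GAGGAAGT, the C/EBP motif TTGCNNAA, TGTGGTT for Runx factors, AGATAAG for GATA factors, CACCTG for E-box factors and the paired motif of interferon regulatory factors. Each of the motifs except the E-box was in 1 of the 28 windows (3.57%). Over all 32851 mouse promoter windows the shares were 3.89% for ETS, 3.2% for the PU.1 type, 10.8% for C/EBP, 5.27% for Runx, 3.04% for GATA and 3.44% for the interferon type. The E-box letters were in 6 windows (21.4%), against 20.2% of all windows. Counted by gene over the 9395 genes of the expression table with a window, the ETS letters were in 9.59% of genes against 1 of the 24 (4.17%). By gene the C/EBP letters were in 10.2% of the table against 4.17%, and the E-box letters in 20.1% against 25%. With 28 windows these shares are coarse, and a match is a description of letters and not of a bound site. The lines printed here show the 250 bases before the start of the 2 receptor genes with a match to a myeloid factor, read 5′ to 3′ on the strand of the gene, with the matched letters in capitals. The C/EBP match of Il1r1 begins at -133 from 1 of its annotated starts (chr1:40224830-40225079, plus strand). The window of its other start (chr1:40266336-40266585 before the start) held no C/EBP match and is not printed. The PU.1-type match of Pirb begins at -120 (chr7:3720383-3720632, minus strand).
Il1r1: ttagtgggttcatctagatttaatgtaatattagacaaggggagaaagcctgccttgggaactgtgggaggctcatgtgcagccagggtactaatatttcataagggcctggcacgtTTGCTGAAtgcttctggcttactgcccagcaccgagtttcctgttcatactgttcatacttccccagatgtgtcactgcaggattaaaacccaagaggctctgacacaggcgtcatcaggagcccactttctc
Pirb: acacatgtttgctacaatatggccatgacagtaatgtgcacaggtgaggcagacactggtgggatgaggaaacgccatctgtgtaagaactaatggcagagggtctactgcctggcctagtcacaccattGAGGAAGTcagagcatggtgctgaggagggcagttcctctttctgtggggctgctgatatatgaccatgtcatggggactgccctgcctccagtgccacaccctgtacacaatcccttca

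Among the enzymes, Hk3 was lowest in CLP and Ugt1a7c was lowest in HSC. Hk3, the hexokinase of granulocytes and monocytes, stood at 45.5, 46.01, 52.9 and 53.5 RPKM in mutant MPP4, 24.5, 17.8, 28.5 and 21.7 in HSC and 2.82, 4.18, 3.17 and 12.4 in CLP. HSC held the intermediate level, and CLP was low except for replicate 4. Its difference from HSC was 1.08 ± 0.27 and that from CLP 3.13 ± 0.27 (limma, Benjamini-Hochberg adjusted p = 0.00279 and 2.43e-08). The ends of Hk3 and Unc5a, which lie on opposite strands, overlap in the annotation, and Unc5a was at 5.57 ± 0.737 RPKM (SD, n = 3) in wild-type MPP4 and 5.61 ± 0.265 in HSC. Ltc4s, which makes leukotriene C4, had 11.5 ± 1.96 RPKM in mutant MPP4, 4.74 ± 1.897 in HSC and 4.47 ± 1.38 in CLP, with differences of 1.16 ± 0.22 and 1.21 ± 0.22 (limma, Benjamini-Hochberg adjusted p = 2.59e-04 and 2.94e-04). HSC and CLP overlapped for Ltc4s.

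Msrb3, a methionine sulfoxide reductase that repairs oxidised protein, had 14.7 ± 3.05 RPKM in mutant MPP4, 5.59 ± 1.58 in HSC and 6.64 ± 0.709 in CLP. It was called against both (1.27 ± 0.19 and 1.03 ± 0.19; limma, Benjamini-Hochberg adjusted p = 1.72e-05 and 3.20e-04). Ugt1a7c, a glucuronosyltransferase that tags small molecules for excretion, had even replicates, with 14.8, 13.1, 14.7 and 17.1 RPKM in mutant MPP4, 4.58, 4.697, 5.84 and 4.82 in HSC and 8.54, 6.55, 7.91 and 8.79 in CLP. The 3 mutant populations did not overlap, and the differences were 1.41 ± 0.10 and 0.83 ± 0.10 (limma, Benjamini-Hochberg adjusted p = 1.24e-09 and 4.01e-06). Ugt1a7c shares its last exons with the other genes of the Ugt1a locus. Ugt1a6a, the other gene of that locus in the table, stood at 1.65 ± 0.646 RPKM (SD, n = 4) in mutant MPP4, so which first exon the reads came from cannot be told.

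Spint1 encodes a membrane-bound inhibitor of serine proteases such as the hepatocyte growth factor activator. Its mutant values were 6.03, 5.71, 9.34 and 8.44 RPKM in MPP4, 0.482, 0.46, 1.495 and 0.761 in HSC and 2.03, 2.06, 1.32 and 2.02 in CLP. The MPP4 libraries stood above all others, and the differences were 2.23 ± 0.24 and 1.54 ± 0.24 (limma, Benjamini-Hochberg adjusted p = 2.89e-07 and 6.26e-05). Of the 24 genes with a promoter window, Spint1 alone held the ETS letters CCGGAAGT, on its own strand from -98 (4.17%, against 9.59% of the table's genes). It is shown because the mutated factor belongs to that family; no binding was measured (chr2:119237110-119237359, plus strand, GRCm38.p6, match in capitals).
Spint1: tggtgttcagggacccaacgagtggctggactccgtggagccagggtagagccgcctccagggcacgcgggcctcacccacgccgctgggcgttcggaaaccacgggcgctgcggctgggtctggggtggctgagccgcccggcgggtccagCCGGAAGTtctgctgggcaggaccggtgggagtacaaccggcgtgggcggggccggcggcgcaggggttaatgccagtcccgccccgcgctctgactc

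Genes of membranes and the cytoskeleton had moderate differences. Ckap4, an endoplasmic reticulum protein that anchors the organelle to microtubules, had 40.6, 31.0, 40.6 and 38.9 RPKM in mutant MPP4, 12.8, 13.3, 8.03 and 10.99 in HSC and 21.9, 19.9, 5.096 and 20.6 in CLP. CLP replicate 3 lay far below the other CLP libraries. Its difference from CLP was 1.28 ± 0.30 and that from HSC 1.67 ± 0.30 (limma, Benjamini-Hochberg adjusted p = 0.00288 and 1.39e-04). Anxa2, a calcium-dependent binder of membrane lipids, had 40.6 ± 5.03 RPKM in mutant MPP4, 12.3 ± 0.161 in HSC and 16.8 ± 5.15 in CLP, and was called against both (1.64 ± 0.20 and 1.26 ± 0.20; limma, Benjamini-Hochberg adjusted p = 1.18e-06 and 6.14e-05). Epb41l3, a protein 4.1 family member that links membrane proteins to actin and spectrin, was lower in CLP than in HSC. It had 7.45 ± 1.53 RPKM in mutant MPP4, 3.67 ± 1.05 in HSC and 1.26 ± 0.6297 in CLP, with differences of 0.86 ± 0.20 and 1.92 ± 0.20 (limma, Benjamini-Hochberg adjusted p = 0.001402 and 3.20e-07).

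Anxa3, an annexin of neutrophils, was the gene with the weakest MPP4 peak in the mutant. Its wild-type values were 10.05, 8.92 and 9.79 RPKM in MPP4 against 3.02, 1.83 and 3.99 in CLP, and its mutant values were 6.77, 6.48, 9.23 and 7.95 in MPP4, 4.195, 6.01, 5.23 and 7.77 in CLP and 1.68, 1.61, 1.59 and 2.98 in HSC. Mutant CLP replicate 4 overlapped the MPP4 range. Anxa3 was called against HSC (1.55 ± 0.18, adjusted p = 9.54e-07) and not against CLP (0.35 ± 0.18, adjusted p = 0.173, limma with Benjamini-Hochberg adjustment).

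Hnf4a and Ddx4 are known mainly from other tissues. Hnf4a, a nuclear receptor of liver and gut, stood at 27.4, 27.4, 31.1 and 27.5 RPKM in mutant MPP4, 3.96, 7.67, 10.5 and 5.46 in HSC and 4.76, 2.94, 5.37 and 6.97 in CLP, and at 21.4, 12.6 and 18.96, 5.25, 7.61 and 3.01 and 4.57, 1.18 and 3.29 in wild type. All MPP4 libraries lay above all others, and the mutant differences were 1.96 ± 0.30 and 2.33 ± 0.30 (limma, Benjamini-Hochberg adjusted p = 2.15e-05 and 5.10e-06). Ddx4, the RNA helicase Vasa of germ cells, was at 11.4, 14.3, 16.9 and 21.7 RPKM in mutant MPP4, 0.14, 0.473, 1.11 and 0.507 in HSC and 3.97, 2.25, 13.1 and 13.2 in CLP. The mutant CLP libraries split into a low pair (replicates 1 and 2) and a high pair (replicates 3 and 4, both labelled 10 weeks), whereas the wild-type CLP values were 3.28, 2.89 and 2.81. Ddx4 was called against HSC (3.45 ± 0.34, adjusted p = 1.01e-07) and CLP (1.14 ± 0.34, adjusted p = 0.0188, limma with Benjamini-Hochberg adjustment). The CLP call was lost with a pseudocount of 0.1, with the libraries of only those 2 groups, and without any one of MPP4 replicate 4 and CLP replicates 1 and 2 (adjusted p from 0.0565 to 0.0985).

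The 2 long noncoding RNAs each overlap a better-known gene. F630028O10Rik (chromosome X, 96239926 to 96243642) contains Mir223 on the same strand, the gene of a microRNA abundant in granulocytes and monocytes. The host transcript stood at 5.09, 5.43, 12.3 and 7.81 RPKM in mutant MPP4, 1.56, 1.04, 2.98 and 1.93 in HSC and 1.36, 2.01, 3.404 and 4.88 in CLP, and at 5.12, 7.56 and 9.57 in wild-type MPP4. Its mutant differences were 1.56 ± 0.31 and 1.16 ± 0.31 (limma, Benjamini-Hochberg adjusted p = 4.61e-04 and 0.00923). The mature microRNAs were not measured in these polyadenylated RNA libraries. Their RefSeq sequences (GRCm38.p6, chromosome X, plus strand) are shown to name the product that the locus carries, with the seed, bases 2 to 8, in capitals. The seeds of the arms differ, and the 3p arm lies at chrX:96242884-96242905 and the 5p arm at chrX:96242842-96242864.
miR-223-3p: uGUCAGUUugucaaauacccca
miR-223-5p: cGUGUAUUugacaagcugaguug

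Gm16897 (chromosome 1, 194955759 to 194976959) overlaps Cd34, which lies on the opposite strand, from 194938821 to 194961292. Gm16897 had 7.37 ± 0.507 RPKM in mutant MPP4, 2.07 ± 0.343 in HSC and 3.096 ± 0.6005 in CLP, with differences of 1.45 ± 0.14 and 1.04 ± 0.14 (limma, Benjamini-Hochberg adjusted p = 7.50e-08 and 1.22e-05). Cd34 itself, far more abundant, had 388 ± 11.5 RPKM (SD, n = 4), 90.7 ± 6.31 and 193 ± 33.3 in the same order. The kit does not mark strand, so reads of the shared stretch cannot be told apart. BC016579 had 5.91 ± 0.746 RPKM in mutant MPP4, 1.405 ± 0.659 in HSC and 0.854 ± 0.484 in CLP, and was called against both (1.55 ± 0.21 and 1.93 ± 0.21; limma, Benjamini-Hochberg adjusted p = 5.99e-06 and 7.47e-07).

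A comparison of mutant CLP with mutant HSC was added after the data were seen. In it 13 of the 25 genes were called, no larger a share than the 57.8% of all genes. Of the 25 genes 11 were higher in CLP, against 21.8% of all genes, and 2 were lower, against 36%. The median of all genes in this comparison was -0.11. Wfdc17 (3.47 ± 0.40), Wfdc18 (2.63 ± 0.28), Ddx4 (2.31 ± 0.34) and Il1r1 (1.81 ± 0.14) had the largest positive differences. Hk3 (-2.05 ± 0.27) and Epb41l3 (-1.06 ± 0.20) were the 2 lower in CLP. Calls in either direction numbered 19 of the 25 genes after quantile normalization (6365 of all 11496 genes) and 14 after median-ratio scaling (6713). On the deposited values they numbered 13, where 57.8% of all genes were called (limma with Benjamini-Hochberg adjustment in each case).

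In gene lists of blood cell types and functions, chosen with results of these data known, neutrophil and monocyte progenitor genes included 5 of the 25 genes (Anxa3, Hk3, Ccl9, Itgam and Pirb). Of the 62 tested genes of that list, 41 were higher and 3 lower in mutant MPP4 than in mutant HSC, and 19 were higher and 8 lower than in mutant CLP. Over all genes 16% were higher and 23.1% lower than in HSC, and 16.4% were higher and 7.86% lower than in CLP. The list's median differences were 1.63 and 0.47. Of 44 cytokine and growth factor receptor genes, which include Il1r1 and Il6ra, 19 were higher and 10 lower than in HSC and 15 higher and 10 lower than in CLP, with medians of 0.25 and 0.14. Of 46 early lymphoid genes, which include Wfdc17, 30 were higher and 5 lower than in HSC, and 6 were higher and 29 lower than in CLP, with medians of 1.22 and -0.60. The medians of all genes were -0.05 and 0.06 as above. Wfdc17 is 1 of the 6 early lymphoid genes called higher in MPP4 than in CLP. Of 13 mast cell and basophil genes, which include Ccl3, 2 were higher and 6 lower than in HSC and 6 higher and 0 lower than in CLP, with medians of -0.33 and 0.56. Of 47 glycolysis, lipid and redox enzyme genes, which include Hk3, 7 were higher and 18 lower than in HSC and 23 higher and 2 lower than in CLP, with medians of -0.01 and 0.27. Of 56 proliferation genes, a list that holds none of the 25, 54 were higher and 0 lower than in HSC, and 0 were higher and 10 lower than in CLP.

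The summed level of granulocyte-monocyte progenitor markers was highest in MPP4, with most of it there from Mpo. The sum of 4 of the 6 listed markers in the table (Mpo, Elane, Prtn3 and Ctsg) was 553 to 728 RPKM in wild-type MPP4, 96.0 to 161 in HSC and 211 to 309 in CLP. In the mutant it was 476 to 586, 63.6 to 238 and 205 to 338. The single markers differed: Mpo means were 467, 3.51 and 236 RPKM in wild-type MPP4, HSC and CLP, whereas Prtn3 was at 112, 116 and 7.91 and Elane at 8.59, 0.432 and 7.81. Ctsg is 1 of the 6 genes that met the thresholds and were set aside. None of these markers was at 0 in every library of a group. The sum of 4 monocyte markers was 40.7 to 98.6 RPKM over the 7 MPP4 libraries, 2.71 to 26.7 in HSC and 37.8 to 128 in CLP. Their part in the levels of the 25 genes was not tested.

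Mature neutrophil transcripts (S100a8, S100a9, Ngp, Ltf and Lcn2, 5 of 6 markers) varied between libraries of the same group. They summed to over 1000 RPKM in HSC_WT replicate 2 (1346), MPP4_HOMO replicate 2 (1861) and CLP_HOMO replicates 2 (1410) and 4 (1913), and to 3.94 RPKM in CLP_HOMO replicate 1. In MPP4_HOMO replicate 2 and CLP_HOMO replicate 2, 8 of the 25 genes lay above their group mean, in HSC_WT replicate 2, 15 did, and in CLP_HOMO replicate 4, 23 did. Without these 4 libraries, mutant CLP was left with replicates 1 and 3 only. In that setting 25 of the genes were called higher in mutant MPP4 than in HSC and 24 than in CLP. The gained gene was Itgam. Over all genes, fewer were called higher than in HSC without these libraries than the 1837 on the main settings. The share of all genes called higher than in CLP at this setting is not given here. No figure over all genes was set beside the counts above the group mean, so those counts are a description.

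**Figure D4:**
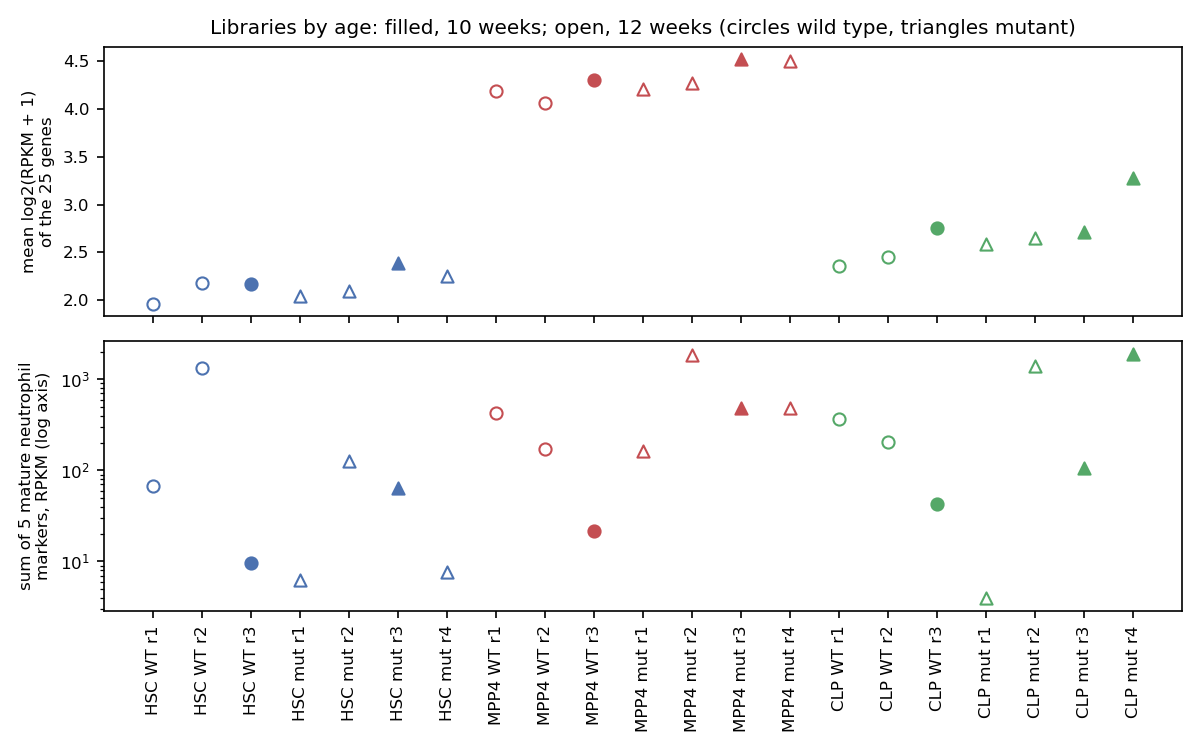
Mean log2(RPKM + 1) of the 25 genes in each library (top) and the summed RPKM of 5 mature neutrophil markers on a log axis (bottom), filled for 10-week-old and open for 12-week-old mice, circles wild type and triangles mutant. The MPP4 libraries lie between 4.06 and 4.52 in the top panel, all above the highest other library, CLP mutant replicate 4, at 3.28, which also has the highest neutrophil sum, 1913 RPKM.

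Within each of the 6 groups, the library in which most of the 25 genes were highest was labelled 10 weeks old. It was replicate 3 in HSC and MPP4 of both genotypes (13 genes each), replicate 3 in wild-type CLP (15) and replicate 4 in mutant CLP (18). Over all genes these libraries were the highest in 26.4% to 41.3% of genes. The other mutant CLP library labelled 10 weeks, replicate 3, was highest in 1 of the 25 genes (4%), against 28.6% of all genes. Replicate 4 of mutant CLP is the library whose age label differs from that of the same number in HSC and MPP4, and it also had the highest neutrophil marker sum. These counts are a description, with no test. Age cannot be told apart from replicate 3 as a mouse or a preparation.

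The study set mutant beside wild type, and the 25 genes are given here by genotype as a description. Their wild-type values chose them, a choice that favours lower mutant values in MPP4 and higher mutant values in HSC and CLP. In MPP4 the mutant mean was higher for 20 of the 25 genes (55.8% of all genes), with a median log2 difference of 0.18 against 0.02 for all genes. Markers of other populations also differed between the genotypes in MPP4. The sum of 6 stem cell markers was 25.3 to 34.5 RPKM in wild type and 53.5 to 63.3 in the mutant, and the sum of 5 CLP markers was 805 to 1107 in wild type and 499.97 to 612 in the mutant, with no overlap in either. Most of the first sum was Hlf (means of 19.9 and 39.8 RPKM) and most of the second Dntt (889 and 527). Of the other stem cell markers all but Fgd5 (0.794 and 0.414) had higher means in the mutant, and the other CLP markers had lower ones. Their part in the levels of the 25 genes was not tested. In 5 genes, Hk3, Anxa2, Itgb5, Hnf4a and Pirb, every mutant MPP4 library lay above every wild-type one (6.68% of all genes), and in 0 of the 25 did every mutant library lie below (3.41% of all genes). By limma with Benjamini-Hochberg adjustment 0 of the 25 were called in MPP4, against 0.217% of all genes, and 2 had an unadjusted p under 0.05 (8.14% of all genes). In HSC 0 were called (0.0522% of all genes), with 2 at an unadjusted p under 0.05 (4.45%). In CLP 0 were called (0% of all genes), with 7 at an unadjusted p under 0.05 (4.41%).

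The values of the 5 separated genes in MPP4 were as follows in wild type and mutant. Hk3 had 35.8, 34.8 and 31.6 RPKM in wild type and 45.5, 46.01, 52.9 and 53.5 in the mutant. Anxa2 had 32.6, 29.3 and 26.7 against 34.1, 39.3, 44.96 and 44.2 RPKM. For these 2 genes the gap between the genotypes was wider than the range of the wild-type values in Hk3 and narrower in Anxa2. Itgb5 had 18.5, 22.2 and 23.1 RPKM in wild type and the mutant values given above, from 25.01 to 29.95. The wild-type values of Pirb were 9.12, 6.03 and 7.69 RPKM, and the mutant ones split into 9.94 and 10.3 against 16.8 and 17.95. Hnf4a, listed above in full, had its 4 mutant MPP4 libraries between 27.4 and 31.1 RPKM.

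**Figure D5:**
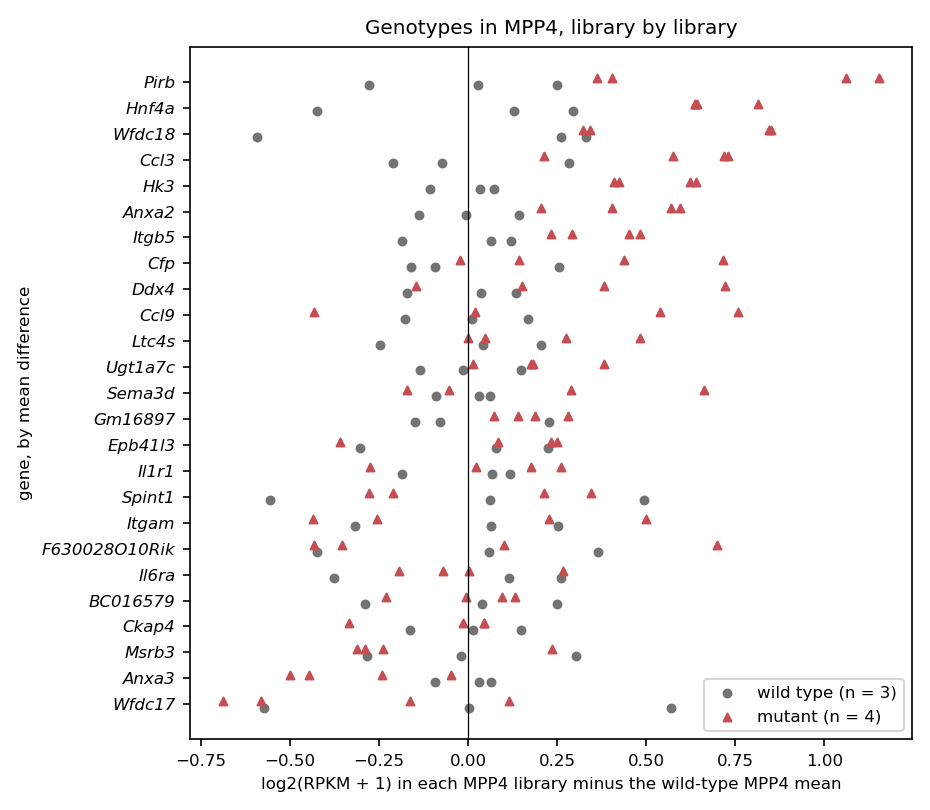
Level of each of the 25 genes in each MPP4 library, as log2(RPKM + 1) minus the wild-type MPP4 mean of the gene (horizontal axis), with genes ordered by the mean difference (grey circles wild type, n = 3; red triangles mutant, n = 4). Pirb, Hnf4a, Hk3, Anxa2 and Itgb5 have all triangles to the right of all circles, and Wfdc17 is the lowest row.

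In HSC, Msrb3 and Ugt1a7c did not overlap between genotypes, both higher in the mutant (3.36% of all genes). Msrb3 stood at 2.55, 1.62 and 2.697 RPKM in wild-type HSC and 4.55, 3.95, 6.66 and 7.195 in mutant HSC, while its MPP4 means were 16.4 ± 3.57 (SD, n = 3) and 14.7 ± 3.05 (SD, n = 4). Its ratio of MPP4 to HSC was thus 7.19 in wild type and 2.63 in the mutant. Ugt1a7c stood at 3.32, 3.42 and 3.52 RPKM in wild-type HSC and 4.58, 4.697, 5.84 and 4.82 in mutant HSC. In CLP, Anxa3, Il1r1 and Ugt1a7c were higher in every mutant library (1.94% of all genes) and BC016579 was lower in every mutant library (2.18%). Ugt1a7c was thus separated in HSC and CLP, with 5.56, 5.88 and 5.56 RPKM in wild-type CLP and 8.54, 6.55, 7.91 and 8.79 in the mutant. BC016579 had 1.78, 2.61 and 1.73 RPKM in wild-type CLP and 0.711, 1.103, 0.246 and 1.35 in the mutant.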

How the data were processed

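Polyadenylated RNA of 21 sorted libraries was measured by SMART-seq and NexteraXT tagmentation, a method that does not mark strand, per the labels' protocols. The values were deposited by the authors as RPKM in 1 table of 11628 genes. Reads were aligned with STAR to mm10, per the submitters' processing notes; its version, how reads were counted and on which annotation, and how shared reads were treated were not given in the sources used here. The table holds no counts, so depth is unknown and no counting interval is given.

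The symbols of 16 genes had become dates and were taken from their Entrez identifiers; 11619 identifiers matched RefSeq (GRCm38), and coordinates are 1-based from that annotation. The 25 genes were selected on mean RPKM as the opening describes. The members and lists were chosen with earlier results of these data known. Values were analysed as log2(RPKM + 1), which understates changes of genes near 1 RPKM. Genes with at least 3 libraries at 1 RPKM were kept (11496 genes, all 25 chosen ones among them). The model, in limma 3.58.1 under R 4.3.3, had a mean for each of the 6 groups and a variance trend, over all 21 libraries (15 residual and 4.62 prior degrees of freedom). Tests were two-sided with Benjamini-Hochberg adjustment over all genes, and a gene was called at an adjusted p under 0.05. The fit was tested on simulated data. Errors are SD over libraries and SE for log2 differences. Within a group the labels give separate mice, so the p-values measure the spread between mice together with that of the preparation. The series gives 4 mutant mice for the 3 populations, so the populations compared may share mice. The main model had no term for the mouse, and a block on the replicate number was run as an alternative.

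Genes named in the text were the 12 with the highest wild-type MPP4 mean, the 12 with the largest differences called in both mutant comparisons, those on a list, nearest a threshold, missing the thresholds in the mutant means, or within 100 kb of another; the remaining ones are given because every gene was to be accounted for. Whether replicate numbers mark a mouse was checked by correlating deviations from group means over genes. Same-numbered mutant HSC and MPP4 libraries correlated at 0.121 to 0.330 (other numbers at most 0.181). Same-numbered mutant MPP4 and CLP libraries correlated at 0.0955 to 0.379 (other numbers at most 0.236). The ranges overlap in both, so these values do not settle the pairing in the mutant. In wild type the ranges did not overlap, at 0.0941 to 0.330 (other numbers at most 0.0625) and 0.217 to 0.271 (at most -0.0211). Alternatives were other pseudocounts, no filter, quantile normalization, median-ratio scaling, library weights, terms for sex, age and replicate block, only the libraries compared, and leaving out libraries.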

Additional observations from a re-analysis of the deposited data

Results flagged for a closer look

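In 75 sets of 4 mutant libraries (25 genes in 3 populations), 9 had a library whose gap to the nearest other, divided by the range of the 4, was above Dixon's 95% critical value. Chance alone flags about 1 in 20 such sets. In HSC, Anxa3 was high in replicate 4 (2.98 RPKM against 1.59 to 1.68), Wfdc18 was low in replicate 2 (0.331 against 1.10 to 1.25) and Il6ra was low in replicate 3 (5.17 against 6.80 to 6.85). In MPP4, Hnf4a was high in replicate 3 (31.1 against 27.4 to 27.5) and Msrb3 in replicate 2 (19.2 against 12.9 to 13.6). In CLP, Pirb (12.97 against 2.70 to 3.87) and Hk3 (12.4 against 2.82 to 4.18) were high in replicate 4, the library with the highest sum of mature neutrophil markers, and the part of those transcripts was not tested. In CLP replicate 3, Spint1 (1.33 against 2.02 to 2.06) and Ckap4 (5.10 against 19.9 to 21.9) were low.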

How the results depend on the processing

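Depth is unknown, and 3 or 4 libraries a group limit the precision. Under all alternatives run, 25 genes were called higher in mutant MPP4 than in mutant HSC, and 21 to 24 than in mutant CLP. The replicate block (25 and 23 genes) changed neither count. The count of all genes called higher than in HSC did move. It was 1837 on the main settings, 2178 after quantile normalization and 2092 after median-ratio scaling. It was under 1837 without any 1 of the mutant HSC or MPP4 libraries, and without the neutrophil-rich libraries. Against CLP, 1521 of all genes were called higher after median-ratio scaling. The choice itself moved with its thresholds: 63 genes met 1.5 times, 10 met 3 times and 16 met a level of 10 RPKM. Without each wild-type replicate number in turn 23 to 28 genes were chosen (21 to 25 of the 25 among them), and medians in place of means gave 32 (24 shared). Without each mutant replicate number, 18 to 21 genes met the thresholds in the mutant means. Between genotypes, 1 of the 25 was called in HSC with library weights and 1 with an age term, in place of 0. Over all genes, the genotype calls ranged from 0 to 184 in MPP4 (25 on the main settings), 0 to 21 in HSC (6) and 0 to 5 in CLP (0), and the genes called higher in mutant MPP4 than CLP were 1221 after quantile normalization in place of 1886. Age terms and omission of neutrophil-rich libraries were chosen after seeing the data.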

Other observations

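The 6 genes that met the thresholds and were set aside by name had the following levels, given as a description. Cd34, a surface sialomucin of progenitors, stood at 370.3 ± 22.1 RPKM (SD, n = 3) in wild-type MPP4 and 388 ± 11.5 (SD, n = 4) in the mutant. Cebpa, the transcription factor that directs progenitors to the granulocyte and monocyte lineage, stood at 12.8 ± 2.98 and 12.1 ± 2.28 RPKM, and Gfi1, a repressor required for neutrophils, at 13.8 ± 3.78 and 15.2 ± 1.12. Ctsg, a neutrophil granule protease, was at 67.4 ± 20.9 RPKM in wild-type MPP4 and 34.3 ± 2.57 in the mutant. The transporter genes Slco3a1 and Slc16a11 stood at 22.9 ± 5.38 against 21.2 ± 4.12 and at 15.6 ± 1.24 against 26.3 ± 5.86 RPKM.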
